A study of Mus musculus with 8 samples.

Results

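The 8 genes described here, *Pdk4*, *Angptl4*, *Fgf21*, *Vnn1*, *Cpt1a*, *Acadm*, *Ehhadh* and *Adfp*, are genes that fasting and the fatty acid-sensing PPAR receptors are known to induce. They were chosen by name, with the ratios of *Pdk4* and *Angptl4* on these arrays already known, to ask whether other targets of the same receptors followed those 2 genes. They are 8 of 21597 genes on the array and are read by 10 of its 34850 gene probes, because *Fgf21* and *Cpt1a* have 2 probes each and the other genes have 1. *Adfp* is the array's name for *Plin2*. Because the strain ratios were known when the genes were chosen, the ratios of the 8 genes are given as a description, with no p-value, and the call rule used for all genes is applied to them only to place them among the rest.

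Pancreas RNA from 8 individual 12-week-old female NOD mice, replicates 1 to 8, was labeled red (Cy5), and each was hybridized on its own Agilent 2-color array against 1 green (Cy3) pool of pancreas RNA from 8 age-matched NOD.B10 mice. NOD (NOD/LtJ) is an inbred strain whose females develop autoimmune diabetes. NOD.B10 (NOD.B10Sn-H2b/J) carries another major histocompatibility region on the NOD background and is not prone to diabetes. The labels list neither a transgene nor a treatment for either strain. The dyes were not exchanged, so strain and dye cannot be told apart, and the spread among NOD.B10 mice was not measured because they entered as 1 pool. By the barcodes in the file headers, the first slide held replicates 1 to 4 and the second held replicates 5 to 8. Signals well above background were read at 57.6% to 60.7% of spots in green but at 21.6% to 35.3% in red (30.1% to 35.3% on slide 1 and 21.6% to 33.9% on slide 2). Acinar enzyme transcripts, the defining markers of pancreas, had the highest summed signal of the cell type markers in every array. Liver markers (albumin, fibrinogens and the like) were stronger in the pool. Of 14 liver genes tested, 7 were called lower in NOD and 0 higher, against 1.3% and 0.391% of all genes tested. Red was well above background on at least 4 arrays in only 4 of the 14. The summed signal of the liver genes was 3745 to 6101 in red and 8601 to 12300 in green. Of 9 adipocyte genes tested, 0 were called, but all 9 means were below 0, as were 10846 of the 18396 means over all genes. The adipocyte sums were 8960 to 20370 in red and 16360 to 22800 in green. Of 9 leukocyte genes and 7 islet genes 0 were called, with medians of 0.55 and -0.61. Skeletal muscle markers were well above background in red in 0 of 7 genes.

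Peroxisome proliferator-activated receptors (PPARs) are nuclear receptors that bind DNA together with a retinoid X receptor and are switched on by fatty acids. In a fasted liver PPARα raises the genes that take up fatty acids, carry them into mitochondria and peroxisomes, and burn them. The same state holds back glucose use, in part through *Pdk4*, which encodes a kinase that shuts off the pyruvate dehydrogenase complex. *Angptl4* encodes a secreted inhibitor of lipoprotein lipase, *Fgf21* a fasting hormone that is also made by pancreatic acinar cells, and *Vnn1* a pantetheinase. *Cpt1a* encodes the enzyme that commits fatty acids to mitochondrial import, *Acadm* the medium-chain acyl-CoA dehydrogenase, *Ehhadh* the bifunctional enzyme of peroxisomal β-oxidation, and *Adfp* a coat protein of lipid droplets.

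*Pdk4* and *Angptl4* were lower in NOD pancreata, and none of the other 6 genes followed them. In the deposited ratio the brighter *Fgf21* probe and *Vnn1* lay above the pool on all 8 arrays, *Cpt1a* lay on both sides of it, and *Acadm*, *Ehhadh* and *Adfp* were near a ratio of 1. The mean ratios ran in order from *Pdk4* (-1.90 ± 0.57 on the log2 scale, SD, n = 8) through *Angptl4* (-1.51 ± 0.59), *Cpt1a* (-0.12 ± 0.57), *Ehhadh* (-0.04 ± 0.26), *Adfp* (0.01 ± 0.18), *Acadm* (0.02 ± 0.24) and *Vnn1* (0.85 ± 0.50) to *Fgf21* (1.05 ± 0.67). Neighbors within the low pair, within the middle 4 and within the high pair differed by less than their SD. A gene was called when its mean change was at least 2-fold and its adjusted p was under 0.01 in a one-sample limma test over all arrays. By that rule 1.3% of the 18396 genes tested were called lower (239 genes) and 0.391% were called higher (72 genes). All 8 genes passed the filter on low red signal, 2 of them (*Pdk4* and *Angptl4*) met the rule for lower and 0 met the rule for higher. Nothing is read from these counts, since the ratios were known when the genes were chosen. The median of the 8 means was -0.02, that of the 6 genes other than *Pdk4* and *Angptl4* was 0.02, and that of all genes tested was -0.08.

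**Figure D1:**
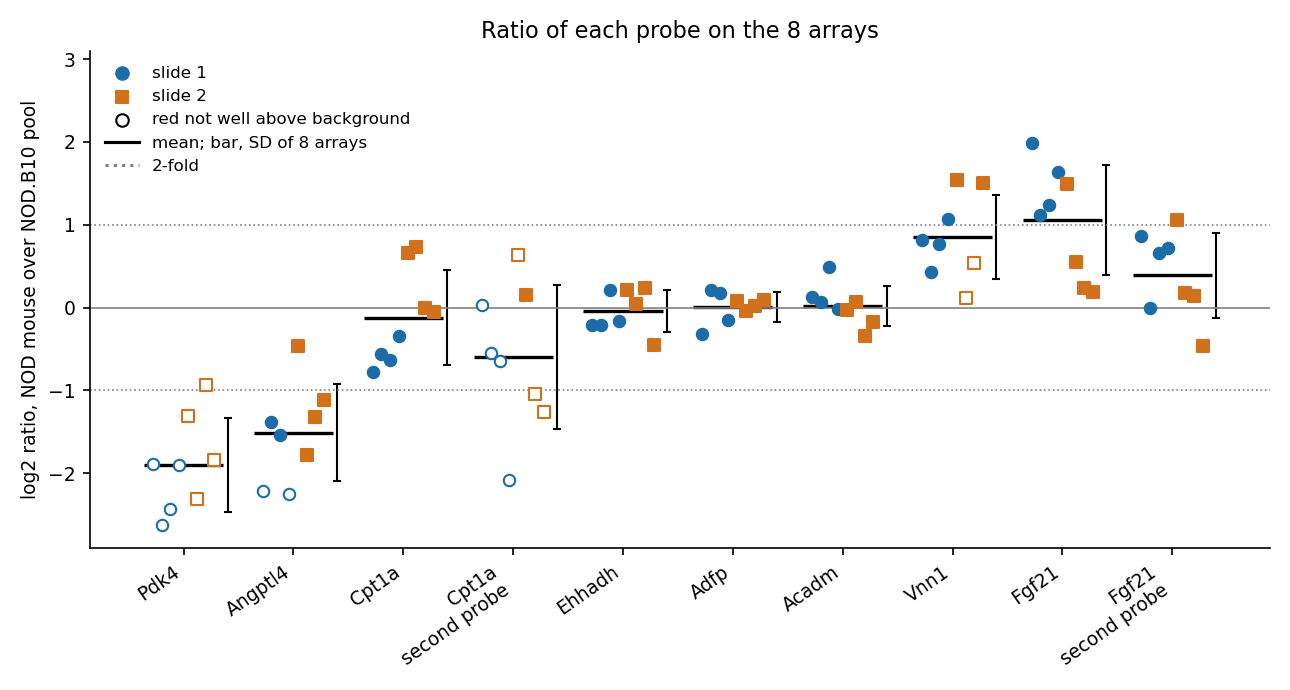
Deposited log2 ratio of each NOD mouse over the NOD.B10 pool (vertical axis) for each of the 10 probes, with circles for the 4 arrays of slide 1, squares for the 4 arrays of slide 2, open symbols where red was not well above background, a line at the mean and a bar for the SD of 8 arrays. *Pdk4* and *Angptl4* lie below 0 on all 8 arrays, *Vnn1* and the first *Fgf21* probe lie above 0 on all 8, and *Ehhadh*, *Adfp* and *Acadm* scatter around 0.

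The *Pdk4* probe lies on chr6:5433441-5433500 (mm8, minus strand). Its log2 ratios in replicates 1 to 8 were -1.89, -2.62, -2.43, -1.90, -1.31, -2.31, -0.93 and -1.84. The mean corresponds to 26.7% of the pool. Every one of these ratios rested on a weak red signal. Green was steady at 174 to 218 and well above background on all 8 arrays, whereas red was 29.5 to 92.5 and well above background on 0 of 8. On 4 arrays (replicates 1, 2, 3 and 8) the deposited red value was a stand-in, a value the scanner software sets from the local noise when a spot is too close to background. On the other 4 arrays the mean ratio was -1.61 ± 0.61 (SD). The order of the mice and the size of the ratio therefore rest in part on values that were not measured. Across arrays the coefficient of variation was 39.4% in red, 8 mice, and 7.74% in green, 1 pool measured 8 times. Under normexp and loess (described with the scalings at the end) the mean was -0.20 and *Pdk4* was not called.

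*Angptl4* (probe at chr17:33381815-33381874, mm8, minus strand) gave brighter spots. Its log2 ratios were -2.21, -1.38, -1.54, -2.25, -0.47, -1.78, -1.32 and -1.11, a mean of 35.2% of the pool. The major histocompatibility region, which differs between the strains, is on the same chromosome, and its part in this ratio was not tested. Replicates 1 and 4 were lowest and replicate 5 stood closest to the pool, with red at 531 against green at 734. Red ranged from 166 to 531 and green from 625 to 931, so that the red and green values did not overlap. Red was well above background on 6 of 8 arrays and a stand-in on 0. Over those 6 arrays the mean was -1.27 ± 0.45, and the 2 arrays left out were the 2 lowest. Without replicate 3 *Angptl4* no longer met the rule, at a mean of -1.50. Under centered signals (described with the scalings at the end) replicates 5 and 8 were above the pool, at 0.31 and 0.13. Under normexp and loess, also described there, the mean was -0.38 and *Angptl4* was not called.

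**Figure D2:**
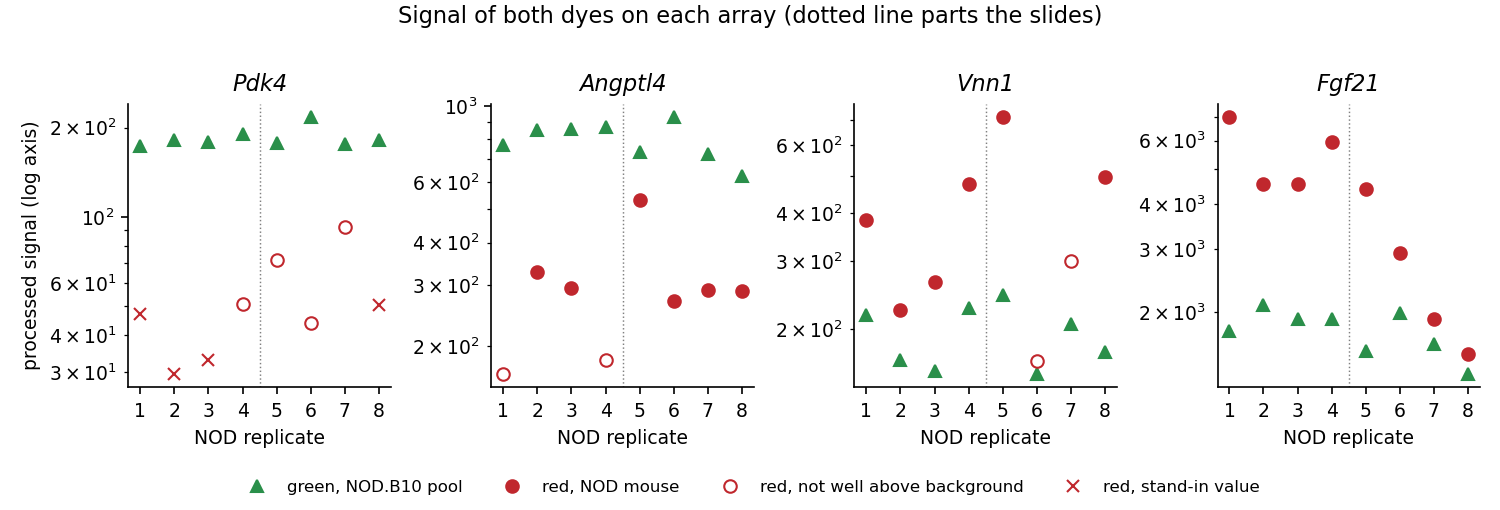
Processed signal (vertical log axis) in each NOD replicate (horizontal axis) for *Pdk4*, *Angptl4*, *Vnn1* and *Fgf21*, with green triangles for the NOD.B10 pool, red circles for the NOD mouse (open where not well above background), crosses for red stand-in values and a dotted line between the slides. Green for *Pdk4* stays between 174 and 218 while all 8 red values lie at 92.5 or below and 4 of them are stand-ins.

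*Fgf21* went the other way. The brighter probe (chr7:45481977-45482036, mm8, minus strand) had log2 ratios of 1.98, 1.12, 1.24, 1.63, 1.49, 0.55, 0.23 and 0.19. Replicates 1 to 5 were more than 2-fold above the pool and replicates 6 to 8 were not. The mean was 2.08-fold, with red at 1536 to 7003 and green at 1348 to 2103, none of them near background. *Fgf21* met the fold of the rule but not its adjusted p, and was not called. It was called higher with slide as a covariate (0.478% of all genes called higher) and with red well above background required (0.828%). The ratio of processed signals (10.5%) and an adjusted p under 0.05 (0.669%) also gave that call, and the other settings did not. A second probe, whose listed position spans 615 bases at chr7:45482352-45482966, gave 0.87, -0.01, 0.65, 0.72, 1.05, 0.18, 0.13 and -0.46, with a mean of 0.39 ± 0.51. Replicates 2 and 8 were below the pool on this probe, so the amount by which *Fgf21* was higher depended on the probe. Under centered signals the brighter probe was near or below the pool in replicates 6 to 8 (0.09, -0.59 and 0.11).

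*Vnn1* (chr10:23594134-23594193, mm8, plus strand) had log2 ratios of 0.82, 0.43, 0.77, 1.07, 1.54, 0.12, 0.54 and 1.51, a mean of 1.80-fold. Replicates 5 and 8 were highest and replicate 6 was nearly level with the pool. Red (165 to 713) was well above background on 6 arrays, where the mean was 1.02 ± 0.44, and green was 153 to 245. The mean over 8 arrays was below 2-fold, and *Vnn1* was not called. Under centered signals replicates 6 and 7 were below the pool, each at -0.68.

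In the deposited ratio *Cpt1a* had the largest difference between the slides of the 8 genes, an order that did not hold under centered signals. Its main probe (chr19:3385374-3385433, mm8, plus strand) was printed 10 times on each array, which gives the noise of a spot within an array but not that of labeling or hybridization. The array means were -0.78, -0.56, -0.64 and -0.34 on slide 1 and 0.65, 0.73, 0.00034 and -0.05 on slide 2. The slides did not overlap in the deposited ratio, but under centered signals replicate 7 (-0.71) lay within the range of slide 1 (-0.91 to -0.33). Within an array the 10 spots had an SD of 0.112 to 0.188 (median 0.140), against an SD of 0.571 between arrays, a spread that holds differences between mice and between hybridizations alike. The means of the slides were -0.58 and 0.33, a difference of -0.91 (p = 0.0286, exact two-sided permutation test, 4 against 4 arrays, the smallest p this design allows; adjusted p = 0.183 over the 8 genes). The share of spots with red well above background was also below the whole range of slide 1 on 3 of the 4 arrays of slide 2, and the part of this in the difference was not tested. The second *Cpt1a* probe (chr19:3384629-3384688) was dim, with red at 23.7 to 129 and well above background on 1 array, and its ratios of 0.03, -0.55, -0.64, -2.08, 0.63, 0.15, -1.04 and -1.26 did not part by slide. Under centered signals the same probe did, at -1.48 to -0.13 on slide 1 and 0.42 to 1.09 on slide 2.

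**Figure D3:**
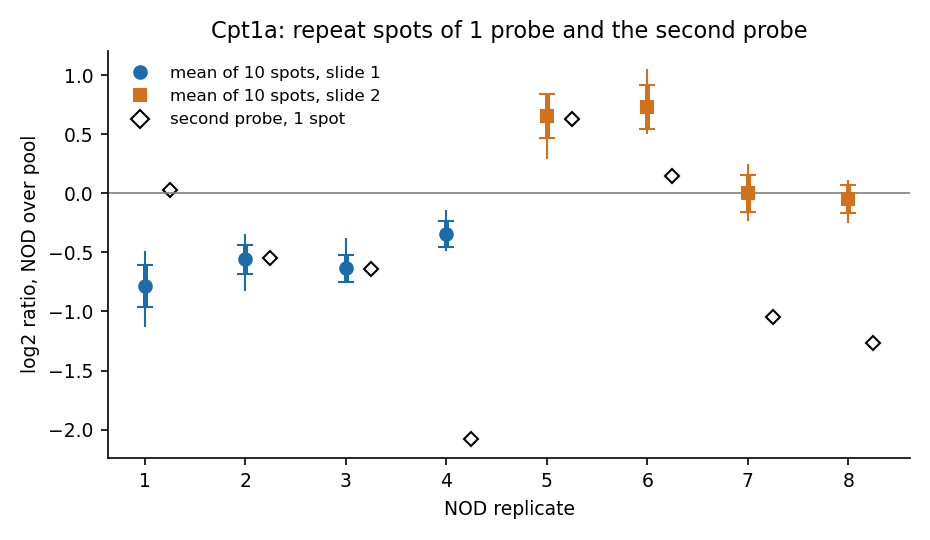
Log2 ratio of *Cpt1a* (vertical axis) in each NOD replicate (horizontal axis), with the mean of the 10 spots of the main probe, thick bars for their SD, thin bars for their range, and diamonds for the second probe. The 4 means of slide 1 lie between -0.78 and -0.34 and the 4 of slide 2 between -0.05 and 0.73, while the spots of 1 array stay within an SD of 0.188.

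The enzymes of β-oxidation and the lipid droplet protein were level. *Acadm* (chr3:153860092-153860151, mm8, minus strand) ranged from -0.34 to 0.48, below the pool on 4 arrays and above it on 4, with red at 2735 to 5160 and green at 3090 to 4157. *Ehhadh* (chr16:21675824-21675883, mm8, minus strand) ranged from -0.45 to 0.24, again on either side of the pool on 4 arrays each. *Adfp* (chr4:86128003-86128062, mm8, minus strand) ranged from -0.32 to 0.22, below on 3 arrays and above on 5. Both dyes read these 3 genes well above background on every array, and they had the smallest spread of the 8 genes. Their means were 101.6%, 97.2% and 100.6% of the pool.

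By slide, *Pdk4* averaged -2.21 on slide 1 and -1.60 on slide 2, *Angptl4* -1.85 and -1.17, and *Fgf21* 1.49 and 0.61. The second *Fgf21* probe averaged 0.56 and 0.23. The differences between slides did not pass the exact permutation test for *Pdk4* and *Angptl4* (each p = 0.114, adjusted p = 0.183) or for *Fgf21* (p = 0.0857, adjusted p = 0.183), and 0 of the 8 genes passed after adjustment. With 4 arrays a slide and a smallest p of 0.0286 before adjustment, the design could hardly have passed any, so a difference between slides may be present in any of them.

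Mice with the lowest *Pdk4* were not shown to be those with the lowest *Angptl4*, and the *Pdk4* values used here include the 4 stand-ins and no red signal well above background. Across the 8 mice the 2 genes had r = 0.36 (p = 0.385) and rho = 0.48 (p = 0.243, exact permutation of the pairings, adjusted p = 0.577 and 0.472), with r = 0.54 without the 2 mice farthest from the median of *Pdk4* and r = 0.01 after centering each slide. Of 13 pairs of *Pdk4* or *Angptl4* with each other and the other genes, 0 passed after adjustment. The pairs with the lowest p were *Pdk4* with *Acadm* (r = -0.72, p = 0.0441, rho = -0.79, p = 0.0279, exact permutation of the pairings, adjusted p = 0.411 and 0.363), which ran in opposite directions, and *Angptl4* with *Adfp* (r = 0.68, p = 0.0633, rho = 0.60, p = 0.132, exact permutation of the pairings, adjusted p = 0.411 and 0.472). Without the 2 mice farthest from the median of the first gene, r was -0.64 and 0.80, and after centering each slide it was -0.56 and 0.73. Within a slide there were 4 mice, too few for a correlation.

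Over the 8 arrays the genes whose ratios ran most like those of *Pdk4*, among 12098 probes with both dyes well above background on at least 4 arrays, were *Npff* (r = 0.97), *Dvl3* (r = 0.97), *Ly6g5c* (r = 0.95), *0610038D11Rik* (r = 0.95) and *Zfp414* (r = 0.94). These rest on the same weak *Pdk4* signals. Those most like *Angptl4* were *Gulo* (r = 0.96), *Col4a6* (r = 0.96), *Prdx2* (r = 0.94), *Htr2b* (r = 0.92) and *Ela3* (r = 0.91). Neither list holds another of the 8 targets, but *Pdk4* could not enter the list of *Angptl4*, because its red signal did not pass the filter on background. The listed r are the highest of many values on 8 points that share their arrays, and are given as a description. The mean ratios of the listed genes were small, from -0.32 (*Dvl3*) to 0.41 (*Htr2b*), unlike those of the genes they tracked.

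The bases before the transcription start are shown for the genes with the lowest and the highest mean ratio and for *Cpt1a*. RefSeq entries on GRCm38.p6, another build than that of the probe positions, were at hand for 6 of the 8 genes. Those of *Angptl4* and *Vnn1* were not used here. The 250 bases before the start were searched on both strands for the PPAR element as 2 half-sites with 1 base between (AGGTCANAGGTCA), for the half-site alone (AGGTCA), for the FOXO element (GTAAACA) and for the TATA box (TATAAA). Capitals mark a match.

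*Pdk4*, chr6:5496279-5496528, minus strand: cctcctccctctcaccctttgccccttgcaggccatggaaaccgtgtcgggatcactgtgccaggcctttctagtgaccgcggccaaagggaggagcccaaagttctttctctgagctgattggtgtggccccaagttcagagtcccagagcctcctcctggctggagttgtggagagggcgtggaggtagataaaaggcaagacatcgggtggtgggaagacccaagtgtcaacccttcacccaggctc
*Fgf21*, chr7:45615491-45615740, minus strand: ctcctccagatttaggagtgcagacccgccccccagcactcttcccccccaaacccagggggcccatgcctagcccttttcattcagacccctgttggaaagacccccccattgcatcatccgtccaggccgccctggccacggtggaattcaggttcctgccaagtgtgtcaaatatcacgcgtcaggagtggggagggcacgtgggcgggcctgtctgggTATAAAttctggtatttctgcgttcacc
*Cpt1a*, chr19:3323051-3323300, plus strand: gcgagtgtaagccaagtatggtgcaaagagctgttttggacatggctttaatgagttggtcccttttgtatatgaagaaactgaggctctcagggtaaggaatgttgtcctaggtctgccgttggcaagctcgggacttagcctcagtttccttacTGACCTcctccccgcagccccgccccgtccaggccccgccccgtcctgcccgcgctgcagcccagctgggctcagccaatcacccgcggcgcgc

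*Pdk4* held none of the 4 motifs in this window. *Fgf21* held a TATA box 28 to 23 bases before the start, a motif present in 12.4% of all 32851 promoter entries of the same length. *Cpt1a* held a half-site on the opposite strand, 94 to 89 bases before the start. A half-site, found in 14.0% of all entries, was also present in *Acadm* and *Plin2* (*Adfp*), and *Ehhadh* held no match. None of the 6 had the full PPAR element (0.033% of all entries) or the FOXO element (3.17%). A match is a run of letters and not a bound site.

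The receptors themselves were near the pool or dim in red. *Ppara* averaged -0.06 ± 0.37 (adjusted p = 0.796, limma) and *Pparg* 0.01 ± 0.23 (adjusted p = 1), both with green well above background on all 8 arrays. *Ppard* averaged -1.25 ± 1.03 (adjusted p = 0.0415), but its red signal was well above background on 0 arrays. The partner *Rxra* averaged 0.02 ± 0.13 and *Rxrb*, the lowest of its list among well-measured genes, -0.39 ± 0.24 (adjusted p = 0.0165). *Ppargc1a*, the coactivator known for driving fatty acid oxidation in fasting, averaged 0.03 ± 0.66. *Med1* (*Pparbp* on the array), a subunit of the Mediator complex that binds PPARs, was higher on all 8 arrays (0.40 ± 0.20, adjusted p = 0.00723).

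Taking the receptors and co-regulators with the other lists of fasting, PPAR and fatty acid genes, no gene met the rule. Of 105 genes in the 14 lists, 102 had a probe, 98 were tested and 0 were called lower or higher, against 1.3% and 0.391% of all genes, and a count of 0 is not far from those shares. Their median mean ratio was -0.15, against -0.08 for all genes tested. By adjusted p alone, at any fold, 3 were lower and 2 higher, against 4.83% and 3.31% of all genes. The 3 lower genes were *Cpt2*, the inner mitochondrial partner of *Cpt1a* (-0.62 ± 0.24, adjusted p = 0.00295), *Abcd3*, a peroxisomal fatty acid transporter (-0.43 ± 0.16, adjusted p = 0.00295), and *Pcx*, pyruvate carboxylase (-0.33 ± 0.16, adjusted p = 0.00679). Each was below the pool on all 8 arrays. The 2 higher were *Med1* and *Tsc22d3*, a glucocorticoid-induced leucine zipper gene (0.57 ± 0.19, adjusted p = 0.00195), also on all 8 arrays. All 5 kept their sign under both other scalings of the signals, but the sizes moved. Under centered signals *Cpt2* was at -1.46, *Abcd3* at -1.29 and *Pcx* at -1.02, and these 3 then met the rule for lower. Under that scaling 9 of the listed genes were called lower and 6 higher, against 5.09% and 17.8% of all genes.

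List by list, the lowest and highest genes with both dyes well above background are given by their mean ratios. In fatty acid uptake they were *Slc27a4* (-0.42) and *Slc27a1* (0.16), both fatty acid transport proteins, the latter with the opposite sign under both other scalings. In activation and thioesterases they were *Mlycd*, malonyl-CoA decarboxylase (-0.39), and *Acsl4*, a long-chain acyl-CoA synthetase (0.12). In the carnitine shuttle the muscle-type *Cpt1b* was at 0.19, opposite *Cpt2*.

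In mitochondrial β-oxidation, among genes with both dyes well above background on at least 4 arrays, *Acadvl*, the very long-chain partner of *Acadm*, was lowest (-0.36, adjusted p = 0.0113). *Hadh* was highest (0.40, adjusted p = 0.0867, opposite in sign under both other scalings). *Acads* was lower than *Acadvl* (-0.84, adjusted p = 0.0162, limma) and below the pool on all 8 arrays, but with red well above background on only 2. The ω-hydroxylases *Cyp4a12a* (-0.31) and *Cyp4a10* (-0.21) were opposite in sign under both other scalings, and the ketone body gene *Bdh1* was at 0.12. With the deposited ratio no oxidation gene of these lists was called in either direction, whereas under centered signals *Abcd3*, *Acads*, *Acadvl* and *Cpt2* were called lower.

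None of the kinases related to *Pdk4* was called. *Pdk2* averaged -0.30 ± 0.44 (adjusted p = 0.203) and stayed below 0 under both other scalings. *Pdk3* averaged -0.57 ± 0.86 (adjusted p = 0.21) and *Pdk1* -0.16 ± 0.20 (adjusted p = 0.144), and each of these 2 took the other sign under at least 1 other scaling. Of the relatives of *Angptl4* and *Fgf21*, *Angptl6* averaged 0.19 and *Creb3l3*, a liver factor that acts with PPARα on *Fgf21*, -0.49 (adjusted p = 0.258), both with changes of sign under other scalings. *Klb*, the co-receptor of FGF21, was at -0.02 ± 0.24. Among fasting genes outside the PPAR set with both dyes well above background on at least 4 arrays, *Lpin1* was lowest (-0.27, other sign under normexp and loess). *Fkbp5* (-1.04) and *Trim63* (-0.73) of that list were lower, but with red well above background on only 2 and 0 arrays. Among gluconeogenic genes *Gpd1* was highest (0.28).

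The lipid droplet list stood lowest, with a median of -0.78 over 8 genes and 0 called. Only 4 of the 8 had both dyes well above background on at least 4 arrays, and their median was -0.63. Under centered signals *Cidec*, *Pnpla2* and *Plin4* (*S3-12* on the array) were called lower, against 5.09% of all genes. *Plin4*, another lipid droplet coat protein, averaged -0.94 ± 0.59 (adjusted p = 0.0167) and was below the pool on all 8 arrays, with red well above background on 3. *Plin1*, the perilipin of fat cells, averaged -1.04 ± 1.31 (adjusted p = 0.141) and ran from -3.27 to 0.74, while *Plin3* was at -0.10 ± 0.27. *Plin1* and *Cidec* of this list are also adipocyte markers, whose range of summed red signal lay partly below that of green. The amount of fat or liver RNA in a sample cannot be told apart in bulk tissue from the level of a transcript per cell. *Pdk4* and *Angptl4* are expressed in liver and fat as well as in pancreas, their green-over-red ratio had the direction of the liver markers, and the part of these tissues in the 2 ratios was not tested.

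**Figure D4:**
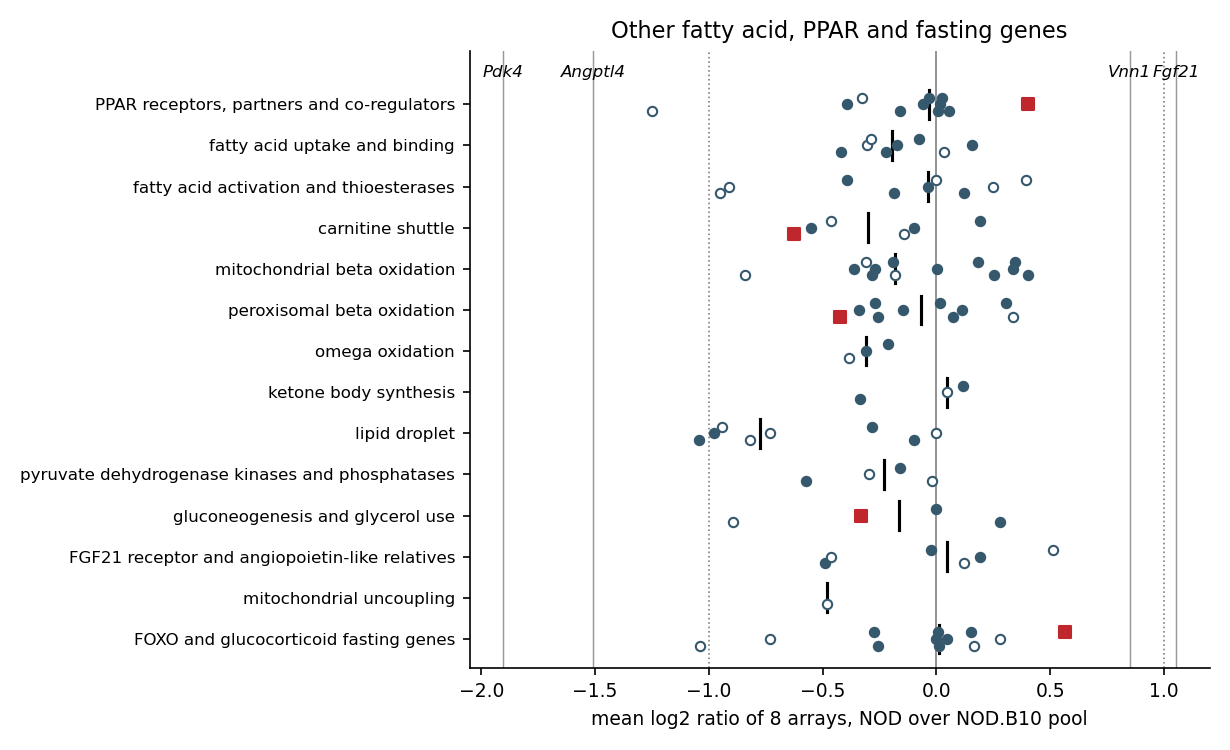
Mean log2 ratio over 8 arrays (horizontal axis) of each tested gene in the 14 lists (rows), filled where both dyes were well above background on at least 4 arrays, red squares where adjusted p was under 0.01, black bars at each list's median, dotted lines at 2-fold, and vertical lines at *Pdk4*, *Angptl4*, *Vnn1* and *Fgf21*. In the deposited ratio no listed gene reaches the ratios of *Pdk4* or *Angptl4*, whereas under centered signals, not drawn here, *Cpt2* (-1.46) and others lay below *Angptl4* (-1.22). The lipid droplet list has the lowest median at -0.78, with 4 of its 8 genes filled.

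The 8 ratios moved by different amounts with the scaling of the signals. With background-subtracted signals centered on the array median, *Pdk4* was at -1.95, *Angptl4* at -1.22, *Fgf21* at 0.83 and *Vnn1* at 0.49. The level genes spread out under that scaling, to 0.40 for *Adfp*, 0.32 for *Acadm* and -0.32 for *Ehhadh*, while the median of all genes moved from -0.08 to 0.02. With normexp correction (which adds an offset of 50 to both dyes and so pulls dim spots toward a ratio of 1) and loess, *Pdk4* was at -0.20, *Angptl4* at -0.38, *Vnn1* at 0.15 and *Fgf21* at 0.65, and 0 of the 8 genes were called lower. Neither scaling turned the sign of the means of these 4 genes. The split of calls over all probes did turn, from 87 higher and 397 lower with the deposited ratio to 3470 and 690 with the ratio of the deposited signals and 5976 and 1272 with centered signals.

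**Figure D5:**
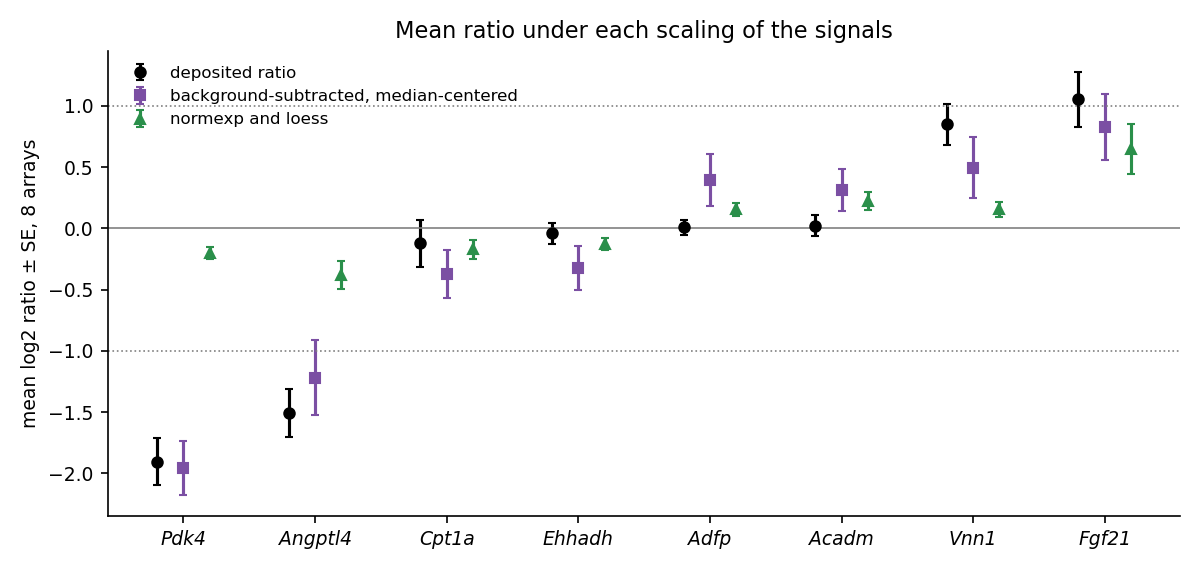
Mean log2 ratio ± SE of the 8 arrays (vertical axis) for each gene under the deposited ratio (circles), background-subtracted and median-centered signals (squares) and normexp with loess (triangles), with dotted lines at 2-fold. *Pdk4* moves from -1.90 to -0.20 under normexp and loess, whereas *Fgf21* stays between 0.65 and 1.05.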

How the data were processed

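Pancreas RNA of 8 NOD mice (Cy5, red) was hybridized singly against 1 pool of 8 NOD.B10 mice (Cy3, green) on Agilent whole mouse genome arrays. The authors scanned the arrays with Feature Extraction 10.7.3.1 (probe positions on mm8), per the file headers. The deposited files hold processed signals of each dye (intensity, after background subtraction and dye normalization) and their log10 ratio. A spot too near background carries a stand-in signal, and the log10 ratio is 0 where both dyes have one. Array number and signal over background, not read depth, limit the precision.

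The log10 ratio was turned into log2 and spots of a probe were averaged. The probe with the highest mean signal stood for a gene. Probes with a symbol whose red signal reached 25 in 4 or more of the 8 arrays (28105) entered limma 3.58.1 (R 4.3.3), a one-sample moderated test with Benjamini-Hochberg adjustment, called at 2-fold and adjusted p under 0.01. The study's methods name a plain T-test, which was run as an alternative. In a simulation on 28105 probes, 145 of 200 probes changed 3-fold were recovered with 0 false calls. It drew independent noise at the spread of each probe, without dye bias, stand-in values or effects shared by an array. Its 0 false calls therefore do not carry over to these arrays. Slides were compared by exact permutation, and correlations across mice by exact permutation of the pairings (scipy 1.17.1). The 8 mice are separate animals, while the pool is 1 sample, so p-values cover the spread of NOD mice and of arrays. Of each of 14 pathway lists the text names every called gene and the lowest and highest gene with both dyes well above background on at least 4 arrays, plus the 5 symbols most like *Pdk4* and *Angptl4*. Receptors, *Klb*, *Pdk2*, genes past adjusted p alone, oxidation genes called under another scaling and lipid droplet genes beyond that rule were named after their values were seen. Some genes that the rule names are not reported here. The 8 genes and all lists were chosen with earlier results of these data known. Promoters are RefSeq sequences on GRCm38.p6.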

Additional observations from a re-analysis of the deposited data

How the results depend on the processing

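With the second probe *Fgf21* was at 0.39 and *Cpt1a* at -0.60. Of 16 means under the rescalings, 6 moved by more than 1 SD of the 8 arrays. The 6 were *Pdk4* (-0.20), *Angptl4* (-0.38) and *Vnn1* (0.15) under normexp and loess, and *Acadm* (0.32), *Adfp* (0.40) and *Ehhadh* (-0.32) under median-centered signals. None of the called ratios changed sign. Leaving out 1 mouse, *Pdk4* ran from -2.04 to -1.80, *Angptl4* from -1.66 to -1.40 and *Fgf21* from 0.92 to 1.18. The counts moved more. Over all probes, 87 were called higher, and 3470 with the ratio of processed signals, 5976 with median-centered signals, 45 with normexp and loess, 158 at an adjusted p under 0.05, and 49 to 76 without 1 replicate. The 397 called lower became 243 with the plain statistic, 42 with red well above background required, 690, 1272, 17, 761 in the order of settings above (processed signals, centered, normexp, adjusted p under 0.05), and 189 to 270 without 1 replicate. Among the 8 genes, 1 was called higher (*Fgf21*) with red well above background required, with the ratio of processed signals, with slide as a covariate and at an adjusted p under 0.05, settings under which 0.828%, 10.5%, 0.478% and 0.669% of all genes were called higher. Those called lower went from 2 to 1 with red well above background required, since *Pdk4* was not tested there, to 0 with normexp and loess, and to between 1 and 2 without 1 replicate (1, *Pdk4*, without replicate 3). Of the other pathway genes, 0 were called, but 2 were higher with the ratio of processed signals (10.5% of all genes), 6 higher and 9 lower with centered signals (17.8% and 5.09% of all genes), 1 lower (*Ppard*) at an adjusted p under 0.05, and 0 to 1 lower without 1 replicate (*G6pc*, without replicate 2). The cause of these moves was not tested. The counts of slide differences and of correlations past adjusted p 0.05 were 0 under their alternatives too, which says little for the slides, where 4 arrays each could hardly pass the adjustment. Values over only the arrays with red well above background or without stand-ins were added after the data were seen. The samples carry no shared replicate numbers between groups, since the pool is 1 sample. No paired analysis was possible because each array already sets 1 mouse against the same pool.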
